A study of Mus musculus with 8 samples.

Results

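Oncofetal genes are active in embryonic tissue, nearly silent in the healthy adult organ, and often active again in tumours. The 7 described here are Afp, Gpc3, Lin28b, Hmga2, Igf2bp1, Igf2bp2 and Igf2bp3. They were found on the arrays as every probe, other than control spots, whose deposited gene name equals one of these symbols, and each probe was kept apart. This gave 7 of 28146 gene names and 15 of 41174 probes: 1 probe for Afp, printed as 10 spots, 3 each for Lin28b, Hmga2, Igf2bp1 and Igf2bp3, and 1 each for Igf2bp2 and Gpc3.

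The study asked how liver gene expression in the fetus changes when the pregnant mother eats less. Pregnant C57BL/6J mice received 50% of the chow eaten by controls from gestation day 10 to 17 (food restriction, FR), or chow without limit (control), and livers were taken on day 18 from the mothers and from male fetuses. The labels name no transgene or mutant allele. RNA of several animals on the same diet was pooled. Each 2-colour array, with 60-base probes, received pools of both diets, and every pair of pools was run in both dye orientations: FR and control mothers in pools of 6 (1 pool pair, 2 arrays), FR and control fetuses in pools of 6 (1 pair, 2 arrays), and FR and control fetuses in pools of 3 (2 pairs, 4 arrays). The 2 arrays of a pair were averaged, so fetal values have n = 3 pool pairs and maternal values have n = 1. The design collected 2 fetuses from each of 6 mothers per diet, so the fetal pools may hold littermates, and the spread between pairs may be smaller than that between unrelated litters.

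Values are log2 ratios, FR minus control, or log2 normalized intensities (levels), and levels of different probes were not set against each other. Median spot signal per channel was 69.1 to 270 on slide 1 (mothers and fetal pools of 6) and 185.5 to 310 on slide 2 (fetal pools of 3), against local backgrounds of 46 to 68, and no member probe was saturated. The array of the fetal pools of 6 with FR in Cy3 stood apart. The median absolute deviation of its log2 ratios over all probes was 0.078, against 0.157 to 0.24 on the other 7 arrays. Markers matched the labelled tissues: the 6 hepatocyte markers measured were well above background in every control channel, and of 3 sex markers Xist was higher, and Ddx3y and Eif2s3y lower, in control mothers than in the control pools of male fetuses.

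By way of background, alpha-fetoprotein (Afp) is the main plasma protein of the fetus. It is made by hepatocytes and yolk sac and is shut off in liver after birth, when its relative albumin takes over. Glypican-3 (Gpc3) is a heparan sulfate proteoglycan on the cell surface that restrains fetal growth. Lin28b is an RNA-binding protein that blocks maturation of the let-7 microRNAs, and let-7 in turn represses Hmga2, a chromatin protein, and the Igf2bp genes, whose products bind and stabilise messages such as those of Igf2 and Myc.

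The let-7 family is shown because Lin28b, Hmga2 and Igf2bp1 are tied together through its seed, bases 2 to 8, printed in capitals. RefSeq (GRCm38.p6) lists 9 mature 5p names of let-7 and miR-98, and all 9 share 1 seed. Of these, let-7a (chr13:48538239-48538260, minus strand), let-7b (chr15:85707325-85707346, plus strand), let-7g (chr9:106178846-106178867, plus strand) and miR-98 (chrX:151913229-151913250, plus strand) read as follows.
mmu-let-7a-5p: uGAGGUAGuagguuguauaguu
mmu-let-7b-5p: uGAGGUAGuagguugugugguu
mmu-let-7g-5p: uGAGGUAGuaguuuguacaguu
mmu-miR-98-5p: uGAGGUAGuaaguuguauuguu
The reverse complement of the seed in DNA letters is CTACCTC. These letters were found in 2 of the 15 member probes, 1 of Hmga2 and 1 of Igf2bp1, and in 0.306% of all 41174 probes. The other strand, GAGGTAG, was in 0.274% of all probes and in 0 member probes. The 28 bases around each match, with the match in capitals, are as follows.
Hmga2, probe A_52_P300730: caaaacacactaCTACCTCttaagtccc
Igf2bp1, probe A_52_P295950: tggttttaatCTACCTCttagcaaaaca
The Hmga2 probe lies at chr10:119798739-119798798 and the Igf2bp1 probe at chr11:95819412-95819471, both on the minus strand in the array's own annotation (mm9). A match is a description of the letters, and no microRNA was measured on these arrays.

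In FR fetal livers 1 probe each of Lin28b, Hmga2 and Gpc3 was called higher than in control fetal livers, by factors well under 2. The Afp probe was called lower, also by a factor under 2, but its sign on single arrays depended on the dye. The other Lin28b and Hmga2 probes were not called or not tested. Across alternative settings the Hmga2 and Afp calls were each lost in 5 of 12. The Gpc3 call was lost in 5 of 11 and the Lin28b call in 1 of 11. Of the 15 member probes 14 passed the filter on dim probes in the fetal pools, and the 14 do not stand for all members. With limma and an adjusted p under 0.05 over all 30812 probes tested, 3 of the 14 were called higher, against 10.9% of all probes, and 1 was called lower, against 14.3%. These are counts of 3 and 1 among 14, so they sit near the shares of all probes. The median log2 ratio of the 14 probes was 0.12, and that of all probes tested was 0.0045. When ratios were centred on the median with no loess step, 25.2% of all calls were higher ones, against 43.4% with it. Scaling the arrays to a common spread left 0 probes called by limma, with 11140 at an unadjusted p under 0.05, and no fetal call given below survived that scaling.

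**Figure D1:**
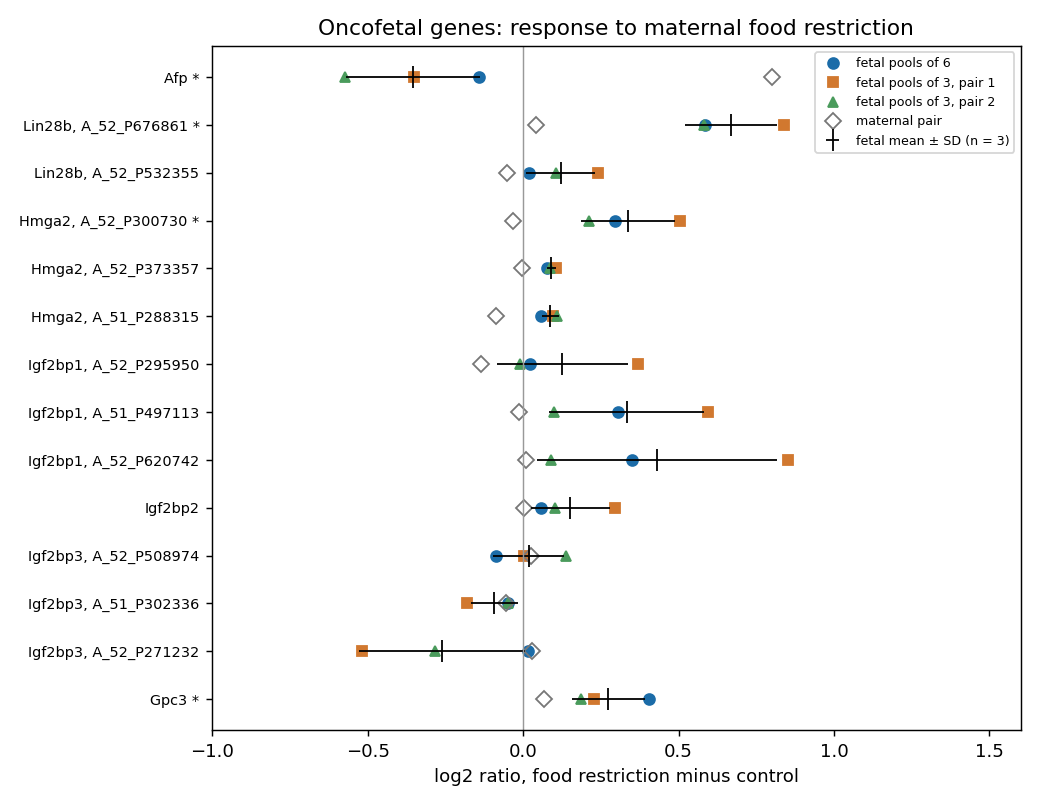
Log2 ratio of FR to control (horizontal axis) for the 14 member probes that passed the fetal filter (rows). Filled symbols are the 3 fetal pool pairs, open diamonds the maternal pair, and black bars the fetal mean ± SD (n = 3); an asterisk marks an adjusted p under 0.05. Lin28b probe A_52_P676861 lies between 0.58 and 0.84 in the fetal pairs, and Afp is below 0 in the fetal pairs and at 0.80 in the maternal pair.

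Lin28b, the brake on let-7, had the largest fetal difference among the 14 probes. On its brightest probe, A_52_P676861 (chr10:45096968-45097027, mm9, minus strand), the FR level was 9.62 in the pools of 6 and 9.54 and 9.13 in the pools of 3, against control levels of 9.03, 8.69 and 8.55. The lowest FR pool was above the highest control pool. The log2 ratio was 0.59 in the pools of 6 and 0.84 and 0.58 in the pools of 3, a mean of 0.67 ± 0.15 (SD, n = 3) or 1.59-fold (limma adjusted p = 0.00709), and FR was higher on 6 of 6 fetal arrays. Both dye orientations gave similar values, with a mean of 0.72 with FR in Cy5 and 0.62 with FR in Cy3. Leaving out the pools of 6, which hold the array that stood apart, gave 0.71 with an adjusted p of 0.0492.

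The other Lin28b probes lay near background. Probe A_52_P532355 (chr10:45140412-45140471, minus strand) had a mean log2 ratio of 0.12 ± 0.11 (SD, n = 3; limma adjusted p = 0.19). Its control level was 6.55 in the fetal pools and 6.31 in the mothers, where the probe was not well above background. Probe A_52_P357516 (chr10:45175317-45175376, minus strand) failed the filter, with 5 of 6 FR and 4 of 6 control fetal channels well above background, and its untested mean ratio was 0.05. The 3 Lin28b probes therefore gave 3 different fetal values, and only A_52_P676861 passed the test. The background offset added before taking logs pulls the ratios of dim probes toward 0. With a smaller offset of 10 the mean ratio of A_52_P532355 was 0.20 (limma adjusted p = 0.132). That of A_52_P676861 was then 0.72 (limma adjusted p = 0.00568), so these probes still gave different values. Why the probes differed was not tested.

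Hmga2, a let-7 target that bends DNA at growth genes, was called on 1 of 3 probes. Probe A_52_P300730, which holds the seed match printed above, had FR levels of 8.78, 8.92 and 8.43 in the pools of 6 and the 2 pools of 3, against control levels of 8.49, 8.42 and 8.22. The groups overlapped. The ratios within pairs were 0.29, 0.50 and 0.21, a mean of 0.34 ± 0.15 (SD, n = 3; limma adjusted p = 0.0261). FR was higher on 4 of 6 arrays: with FR in Cy3 the ratios were -0.04, 0.36 and -0.05. The call was lost in 5 of 12 alternative settings, among them the fit without the pools of 6 (adjusted p = 0.101). Probe A_52_P373357 (chr10:119811916-119811975, minus strand) gave 0.09 ± 0.01 and probe A_51_P288315 (chr10:119799670-119799729, minus strand) 0.09 ± 0.03 (SD, n = 3 each), with limma adjusted p-values of 0.19 and 0.208.

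Gpc3 (chrX:49625740-49625799, minus strand) was the remaining gene called higher. Its FR levels were 13.60, 14.04 and 13.79 in the pools of 6 and the 2 pools of 3, against control levels of 13.19, 13.81 and 13.61. The level varied more between pools than between diets, and the groups overlapped. Within each pair FR was higher, by 0.41, 0.23 and 0.19, a mean of 0.27 ± 0.12 (SD, n = 3) or 1.21-fold (limma adjusted p = 0.0314), on 6 of 6 arrays. The call was lost in 5 of 11 settings, and with median centring and no loess the mean was 0.14 (adjusted p = 0.432). Without the pools of 6 it was 0.21 (adjusted p = 0.131).

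Afp was the member called lower, and its sign on single arrays depended on the dye. Its probe, A_51_P510891 (chr5:90937781-90937840, plus strand), had FR levels of 16.88, 16.78 and 16.55 in the pools of 6 and the 2 pools of 3, against control levels of 17.02, 17.13 and 17.13, and every FR pool was below every control pool. The ratios were -0.14, -0.35 and -0.57, a mean of -0.35 ± 0.22 (SD, n = 3) or 0.782-fold (limma adjusted p = 0.043). With FR in Cy5 the 3 arrays gave 0.83, 0.45 and 0.27, and with FR in Cy3 they gave -1.11, -1.15 and -1.42. The mean difference between FR and control thus comes from averaging orientations that disagree in sign, and it was smaller than the gap between them.

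The raw spot signals show the same gap. On the arrays of the fetal pools of 6 the Cy5 signal of Afp was 264010 for FR and 273462 for control, and the Cy3 signal was 25543 for FR and 26175 for control. In the first pair of pools of 3 the Cy5 signal was 388671 for FR and 460586 for control, and the Cy3 signal 85590 for FR and 105744 for control. In the second pair the Cy5 signal was 358658 for FR and 383975 for control, and the Cy3 signal 62976 for FR and 154632 for control. Read within a dye, the raw FR signal was the lower one in each of these comparisons, which set different arrays against each other. The 10 spots of the probe were close to each other: in the deposited ratios, turned to FR minus control on log2, they ranged from 1.38 to 1.92 on the pools of 6 with FR in Cy5 and from -3.10 to -2.38 with FR in Cy3. On these arrays 8 and 9 of the 10 spots carried a non-uniformity mark in Cy3. The dye term, which is the difference between the orientations divided by 2, was 0.87 for Afp. Its median absolute value was 0.057 over all probes tested. Among the 100 brightest of them the dye term ran from 0.029 to 1.45, with a median of 0.588. Afp ranked 465 by mean intensity over all arrays, which include the maternal ones, where its signal was low. On the single fetal arrays, which gave the dye term, it ranked 7 to 19 in Cy5 and 10 to 96 in Cy3. Each pair was averaged over both orientations equally, so a dye effect that is the same in both cancels in the mean.

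The Afp call was lost in 5 of 12 settings: with each pool pair left out in turn (adjusted p from 0.061 to 0.126), with slide as a term (0.0772) and with scaling (0.0627). Its sign was negative in all 12. Hepatocyte markers moved with it. Of 6 measured, 4 were called lower and 0 higher by limma, against 14.3% and 10.9% of all probes. Of these 6, 1 was higher at an unadjusted p under 0.05, and their median log2 ratio was -0.38. The log2 of their summed level was 18.84, 18.61 and 18.78 in the FR pools of 6 and of 3, against 18.98, 19.13 and 19.09 in the control pools. The summed erythroid markers were at 18.42, 18.46 and 18.05 in FR pools, against 17.84, 17.92 and 18.22 in control pools, with 0 of 6 markers called by limma and 1, higher, at an unadjusted p under 0.05. The part of cell composition in the Afp result was not tested, and in whole-liver RNA fewer cells of a type and less RNA per cell cannot be told apart.

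**Figure D2:**
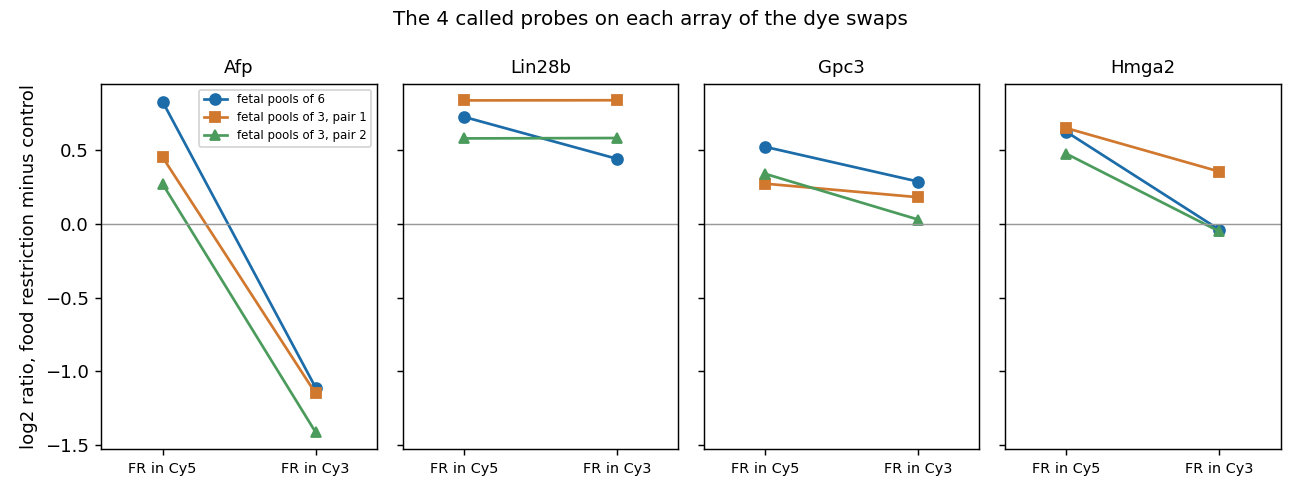
Log2 ratio of FR to control on each fetal array for the 4 called probes; each line joins the arrays of 1 pool pair, with FR in Cy5 on the left and in Cy3 on the right. Afp runs from 0.83, 0.45 and 0.27 to -1.11, -1.15 and -1.42, and Lin28b stays above 0 in both orientations.

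The Igf2bp genes encode binding proteins for growth-factor messages, and 0 of their 7 probes were called by limma, while 2, both of Igf2bp1, had an unadjusted p under 0.05. The mean ratio of Igf2bp1 was above 0 on each of its 3 probes. Probe A_52_P620742 (chr11:95823504-95823563, minus strand) gave 0.35, 0.85 and 0.09 in the pools of 6 and the 2 pools of 3, a mean of 0.43 ± 0.39 (limma adjusted p = 0.0884). Probe A_51_P497113 (chr11:95824526-95824585, minus strand) gave 0.31, 0.60 and 0.10, a mean of 0.33 ± 0.25 (adjusted p = 0.0657), and probe A_52_P295950, with the seed match, gave 0.13 ± 0.21 (SD, n = 3 each; adjusted p = 0.339). On these probes the first pair of pools of 3 had the highest ratio, as it did for Lin28b and for Hmga2 probe A_52_P300730. Over all probes this pair also had the widest log2 ratios of the fetal pairs. Their median absolute deviation was 0.24 and 0.228 on its arrays, against 0.078 to 0.19 on the other fetal arrays. Igf2bp2 (chr16:22059260-22059319, minus strand) gave 0.15 ± 0.13 (limma adjusted p = 0.138).

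The mean ratios of Igf2bp3 lay close to 0 or below it. Probe A_52_P508974 (chr6:49035710-49035769, minus strand) gave 0.02 ± 0.11 and probe A_52_P271232 (chr6:49057401-49057460, minus strand) gave -0.26 ± 0.27 (SD, n = 3 each; limma adjusted p = 0.851 and 0.131). Probe A_51_P302336 is printed because it is the member probe whose position holds an intron: its 60 bases span 608 bases of the genome (chr6:49037849-49038456, mm9, minus strand), so it reads spliced message. No part is in capitals, since the junction was not mapped.
Igf2bp3, probe A_51_P302336: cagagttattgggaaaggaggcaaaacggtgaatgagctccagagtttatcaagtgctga
On this probe the FR levels were 10.47, 10.38 and 10.39, against control levels of 10.52, 10.56 and 10.44, and every FR pool but the one of 6 was below every control pool. The mean ratio was -0.09 ± 0.08 (SD, n = 3; limma adjusted p = 0.241).

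The same genes separated mother from fetus far more than they separated the diets. In control livers 14 member probes could be tested (1 maternal pool against 3 fetal pools, with the lone maternal pool assumed to vary like the fetal ones). With limma and an adjusted p under 0.05, 11 of 14 were lower in mothers, against 15.5% of all 30531 probes, and 0 were higher, against 17%. All 14 differences were below 0, so an unadjusted p under 0.05 also gave 0 higher. Of the 14, however, 8 had neither control maternal channel well above background and passed the filter through the fetal pools, so they could hardly come out higher in mothers, and 6 of the 11 calls are among them. The count over the 14 is therefore a description. Of the 6 probes with at least 1 control maternal channel above background, 5 were called lower. Among these 6, Igf2bp1 probe A_52_P620742 (called) and Hmga2 probe A_52_P373357 (not called) had only 1 such channel. They too passed the filter through the fetal pools, so this count is also a description. The median difference over all probes was 0.016. Without normalization between arrays that median was -0.91, and 6.15% of calls were higher in mothers, against 52.3% with it; these 11 member probes were called under both.

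Afp had the largest difference. Its control level was 7.85 in mothers, against 17.02, 17.13 and 17.13 in fetal pools, a difference of -9.24 ± 0.15 (SE; limma adjusted p = 4.75e-05) or 604-fold from mother to fetus. Gpc3 was at 7.0 in control mothers, against 13.19, 13.81 and 13.61 in control fetuses, a difference of -6.53 ± 0.27 (SE) or 92.6-fold (limma adjusted p = 0.000165). Both genes carried the scanner's mark for well above background in mothers, but the control signals of Gpc3 there were low. They were 55.9 in Cy3 on a local background of 46, and 86.2 in Cy5 on 50.5. The median spot signals of these channels were 69.1 and 135. The sizes of the differences depend on the processing. With an offset of 10 in place of 50 the differences were -9.67 for Afp and -7.13 for Gpc3, and over all settings they ran from -10.40 to -8.08 for Afp and from -7.33 to -6.19 for Gpc3.

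For 9 member probes neither control maternal channel was well above background, and the fold is then a lower bound, taken from the mean of the lowest signal well above background or the probe's own signal on each array. In the main setting Igf2bp3 was at least 20.9-, 16.2- and 4.70-fold higher in control fetuses than in control mothers. These are probes A_52_P508974, A_51_P302336 and A_52_P271232, on which the bound equals the measured fold. Measured means on the first of these were 6.48 in mothers and 10.87 ± 0.49 in fetuses (SD, n = 3 fetal pools). Igf2bp1 was at least 6.02-fold (A_52_P295950) and 4.87-fold (A_51_P497113) higher in control fetuses, and Lin28b at least 5.83-fold (A_52_P676861). The Igf2bp3, Igf2bp1 and Lin28b probes named here passed the filter through the fetal pools, so their bounds are descriptions and no p-value is given. The bounds also hold for the main setting only. Over all settings the log2 difference ran from -5.27 to -4.10 for Igf2bp3 probe A_52_P508974. It ran from -3.63 to -2.32 for Igf2bp1 probe A_52_P295950 and from -3.74 to -2.43 for Lin28b probe A_52_P676861. Igf2bp2, measurable in mothers at 7.59, was at 9.89 ± 0.10 in fetuses, a difference of -2.30 or 4.92-fold (limma adjusted p = 0.000678). Hmga2 probe A_52_P300730 was at 7.10 in mothers and 8.38 ± 0.14 in fetuses, 2.42-fold (limma adjusted p = 0.00535).

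The remaining tested probes gave smaller differences. Igf2bp1 probe A_52_P620742 gave -0.58, with a call lost in 4 of 11 settings. Hmga2 probes A_52_P373357 and A_51_P288315 gave -0.26 and -0.31, and Lin28b probe A_52_P532355 gave -0.24, none of them called. These probes had at most 1 control maternal channel well above background and passed the filter through the fetal pools. Their differences are therefore descriptions, and no p-value is given. The FR pools gave the same ordering at the top: Afp differed by -8.08 between FR mothers and FR fetuses and Gpc3 by -6.74.

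**Figure D3:**
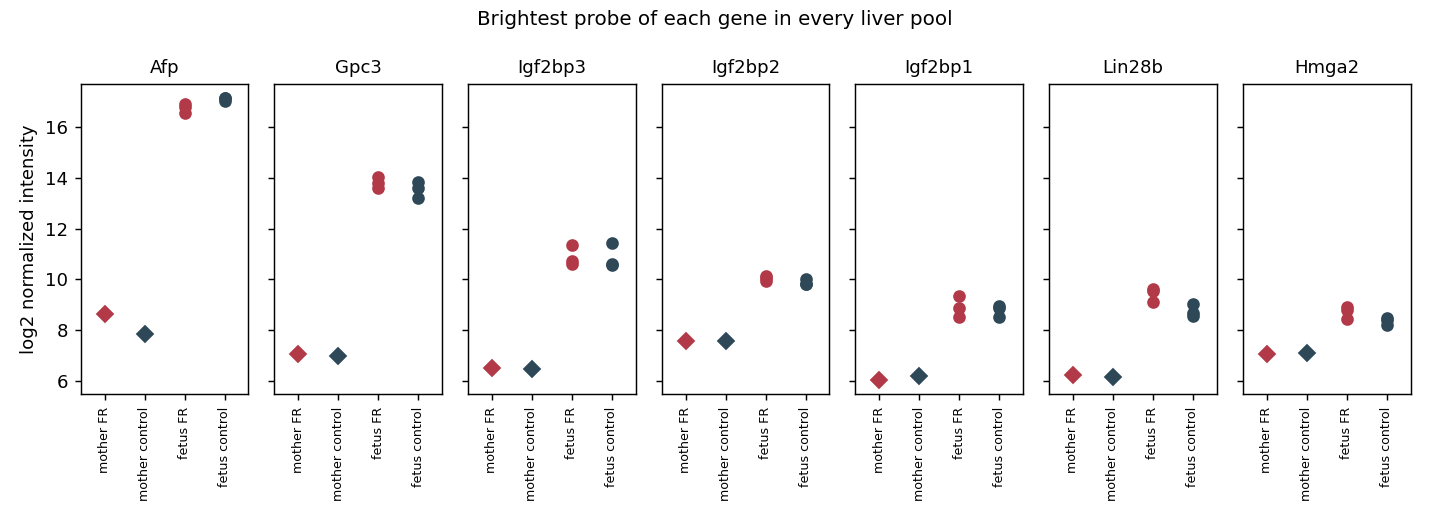
Log2 normalized intensity of the brightest probe of each gene in every pool: FR and control mothers (diamonds, 1 pool each), then FR and control fetuses (circles, 3 pools each). Afp is at 8.65 and 7.85 in mothers and at 16.55 to 17.13 in fetal pools, and the distance between mother and fetus exceeds the distance between diets in each panel.

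The Afp promoter is printed because Afp had the widest range of level among the members. The 250 bases before its RefSeq start (chr5:90490464-90490713, GRCm38.p6, plus strand) hold GTTAAT, the half-site letters of hepatocyte nuclear factor 1, starting 105 bases before the start, and TATAAA, starting 7 bases before it, both in capitals.
Afp promoter: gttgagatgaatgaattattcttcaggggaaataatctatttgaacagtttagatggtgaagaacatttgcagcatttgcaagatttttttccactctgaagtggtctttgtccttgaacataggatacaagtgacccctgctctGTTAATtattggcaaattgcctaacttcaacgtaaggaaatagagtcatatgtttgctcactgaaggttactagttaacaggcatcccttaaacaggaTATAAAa
Counted on both strands, GTTAAT was in 6.43% and TATAAA in 12.4% of all 32851 promoter windows of this length. Promoters of 6 members were in the table, and 1 of the 6, that of Afp, held each motif.

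In mothers the Afp signal was higher in the FR pool, and the other members measured lay near their control values. The maternal comparison has 1 pool pair, so it has no replicate and no test. Afp levels were 8.65 in the FR pool and 7.85 in the control pool, with a ratio of 0.80 in both dye orientations, or 1.74-fold. The raw Cy5 signals were 315 for FR and 173 for control, and the raw Cy3 signals 129 for FR and 75.8 for control, with local backgrounds of 46 to 49.8. So close to background the value depends on the correction: an offset of 10 in place of 50 gave 1.13, and the deposited ratios gave 1.55 and 1.45 on the 2 arrays. In the main setting no member was past 2-fold on both maternal arrays, against 2.04% of 28326 probes. By the deposited ratios Afp was past 2-fold on both, as were 1331 of the 28326 probes. Only 5 member probes passed the maternal filter, and the other 4 of these had ratios of 0.07 (Gpc3), 0.0043 (Igf2bp2), 0.0082 (Igf2bp1 A_52_P620742) and -0.03 (Hmga2 A_52_P300730).

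The maternal and fetal responses were compared directly for 14 member probes. Only 5 member probes passed the maternal filter, and the rest of the 14 were let in through the fetal pools. Afp was the 1 called by limma, against 2.9% of 31554 probes. The maternal minus fetal response was 1.15 ± 0.18 (SE; adjusted p = 0.0454), with 0.80 in the maternal pair and -0.35 as the fetal mean, and the maternal pair lay above each of the 3 fetal pairs. The maternal pair is assumed to vary like the fetal pairs, so the SE and p rest on the spread of those 3 pairs alone, and the maternal ratio itself was 0.80 to 1.5 over the settings run. The call was lost in 5 of 12 settings, including the fit without the fetal pools of 6 (adjusted p = 0.106), the fit without the first pair of pools of 3 (0.0738), and slide as a term (0.22). Lin28b probe A_52_P676861 gave -0.63, but it was not well above background in any maternal channel. This value is therefore a description and no p-value is given. The probes other than Afp that passed the maternal filter had limma adjusted p-values of 0.24 or more for this difference. All calls over all probes were split near evenly, with 49% higher in mothers, and with median centring and no loess 59.5% were higher.

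Genes that act with the members were read from lists, each gene from its brightest probe that passed. In these lists a gene that rose or fell was called by limma at an adjusted p under 0.05. Each count is to be read beside the shares of all probes tested, 10.9% called higher and 14.3% called lower in FR fetal livers. Of 10 other let-7 processing genes, 4 rose and 2 fell in FR fetal livers (median log2 ratio 0.03). Lin28a, the close relative of Lin28b, fell by 0.32 ± 0.12 (SD, n = 3; limma adjusted p = 0.0216), opposite in sign to Lin28b. Those that rose were Zcchc6, an enzyme that tails let-7 precursors (0.54, though its other probes gave -0.18 and -0.02), Dgcr8, a partner of Drosha (0.38), Dis3l2, which degrades tailed let-7 precursors (0.24, with 0.12 on its other probe), and Xpo5, which exports precursors (0.23, with other probes from 0.03 to 0.05). Ago2, which holds mature microRNAs, fell by 0.31, and its other probes gave -0.36 and -0.23. Trim71 was not analysed here.

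Of 22 other let-7 targets, 4 rose and 6 fell (median -0.14). Myc rose by 0.60 ± 0.03, Nr6a1 by 0.47 ± 0.10, Tgfbr1 by 0.32 ± 0.15 and Hmga1 by 0.31 ± 0.05 (SD, n = 3 each; limma adjusted p = 0.00482, 0.00879, 0.0295 and 0.0133). The other Tgfbr1 probe gave 0.07. Among those that fell, Arid3a fell by 0.44, and Lin28a and Insr by 0.32 each, with -0.04 on the other Insr probe. The Myc ratio in the maternal pair was 1.69 and that of Hmga1 was 1.23, both untested. Mycn gave -0.20 ± 0.20 and Igf2 0.16 ± 0.26 (limma adjusted p = 0.141 and 0.322). Let-7 targets thus lay on both sides of 0, with the median below that of all probes.

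Albumin-family genes and regulators of Afp mostly fell: 2 of 18 were called higher and 8 lower (median -0.30). Albumin (Alb) fell by 0.45 ± 0.15 and afamin (Afm), the neighbour of Afp in the albumin cluster, by 1.11 ± 0.33 (SD, n = 3 each; limma adjusted p = 0.0143 and 0.00783). The activators Cebpa (-0.71), Foxa2 (-0.62) and Foxa1 (-0.48), and Zbtb20 (-0.26, with other probes from -0.39 to 0.03), a repressor of Afp, were also called lower. Zhx3 (0.63) and Cebpb (0.29) were called higher, and the 1 probe of Zhx2, a repressor of Afp, did not pass the filter. In control mothers 9 of 18 of these genes were called higher by limma than in control fetuses, against 17% of all probes. Lower calls were 0 (also 0 at an unadjusted p under 0.05), against 15.5% of all probes, while Afp itself was lower. Zbtb20 was 1.48 and Afm 1.83 higher on the log2 scale, and Alb differed by -0.24 (limma adjusted p = 0.00804, 0.00106 and 0.373).

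**Figure D4:**
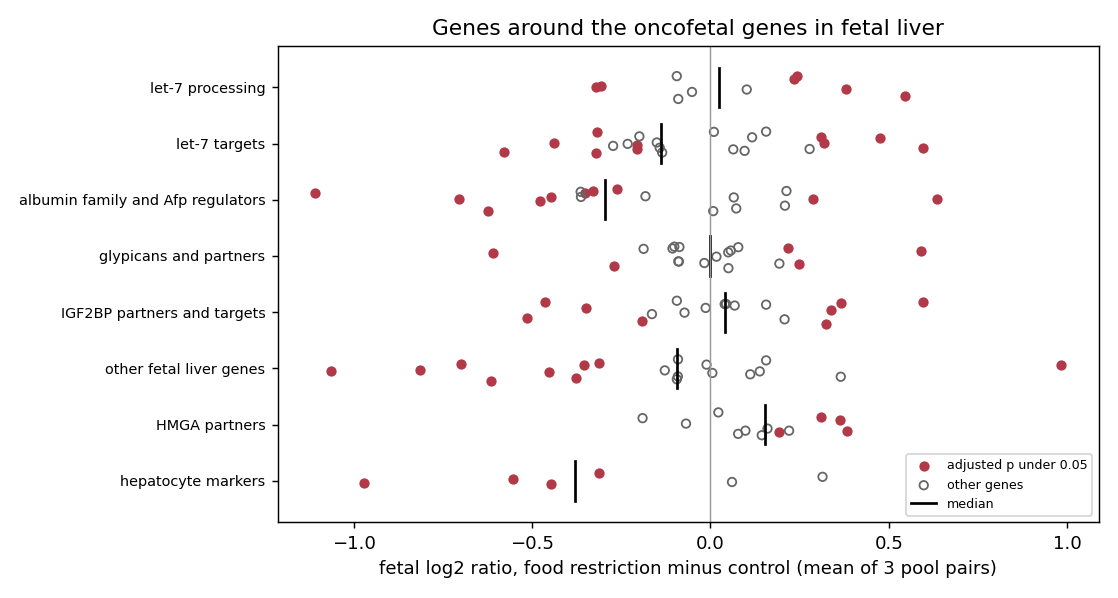
Fetal log2 ratio of FR to control (mean of 3 pool pairs) for the measured genes of each list, without the 7 oncofetal genes. Filled points have an adjusted p under 0.05 and black bars are medians. The albumin family and the hepatocyte markers have medians of -0.30 and -0.38, and the HMGA list has 4 genes called higher and 0 called lower.

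Glypicans and their partners showed no common direction, with 3 of 18 called higher and 2 lower (median -0.0001). Gpc1, another cell-surface glypican, rose by 0.59 ± 0.20 and Gpc6 by 0.25 ± 0.05, with -0.22 on another Gpc6 probe (SD, n = 3 each; limma adjusted p = 0.0112 and 0.0223). Hhip, which binds hedgehog ligands, rose by 0.22, with 0.13 on its other probe. Dpp4, a peptidase reported to bind glypican-3, fell by 0.61, with other probes from -0.56 to -0.19, and Ndst1, a heparan sulfate enzyme, by 0.27, with other probes from -0.36 to 0.07.

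Of 17 IGF2BP partners and target messages, 4 rose and 4 fell (median 0.04). Besides Myc, the RNA-binding genes Fmr1 (0.36), Syncrip (0.34) and Dhx9 (0.32) were called higher. The other probes of Fmr1 and Dhx9 gave 0.02 each, and those of Syncrip ranged from -0.09 to 0.82. Mettl3, which writes the m6A mark that IGF2BP proteins read, gave -0.51 and Elavl1 -0.46, with other Elavl1 probes from -0.28 to 0.38, and both were called lower, as were Pabpc1 (-0.35, with 0.55 on its other probe) and Actb (-0.19). H19, a target of the Igf2bp proteins, was at -0.09 ± 0.24 (limma adjusted p = 0.517).

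Of 12 genes of the HMGA list, 4 rose and 0 fell by limma (median 0.15), and at an unadjusted p under 0.05 there were 6 higher and 1 lower. They were Cdkn1a (0.38), a cell-cycle inhibitor, Snai2 (0.36), a mesenchymal transcription factor, Hmga1 (0.31), the paralogue of Hmga2, and Hmgb1 (0.19), another chromatin protein, whose other probes gave -0.07 and -0.03. Of 19 other fetal liver genes, 1 rose and 8 fell (median -0.09). The imprinted growth regulators Cdkn1c (-1.07), Mest (-0.70) and Grb10 (-0.61) and the activin binder Fst (-0.82) were called lower, and the embryonic globin Hba-x (0.98) was called higher. Dlk1 was at 0.37 ± 0.46 (SD, n = 3; limma adjusted p = 0.175). In control mothers 16 of these 19 genes were called lower by limma than in control fetuses, against 15.5% of all probes. Higher calls were 0 (1 at an unadjusted p under 0.05), against 17% of all probes. The count of 16 includes genes not well above background in mothers, such as Dlk1. Among those measured there, the difference was -9.07 for Igf2 and -8.19 for H19, beside -9.24 for Afp.

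Likeness to each member was measured over the 8 pools as the root mean square difference of log2 levels after each probe was centred on its own mean, over 16184 named genes. The points share pools and arrays, and the mother-to-fetus step dominates the measure. The nearest genes to Afp were Rhd (0.257), Stfa2l1 (0.269) and Stfa2 (0.283), to Gpc3 Bex1 (0.213), Cdc25b (0.25) and Apol8 (0.266), and to Lin28b Arxes1 (0.114), Racgap1 (0.131) and Shbg (0.136). The nearest to Hmga2 were 6030468B19Rik (0.039), Eef2k (0.075) and Orai2 (0.08). Those given for Igf2bp1 are Gtse1 (0.093) and Traip (0.104), those for Igf2bp2 Dsn1 (0.044), Slc35d3 (0.05) and Cracd (0.087), and those for Igf2bp3 Cdc6 (0.153), Chil4 (0.166) and Anxa1 (0.185).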

How the data were processed

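Liver RNA pools were measured on 8 Agilent 2-colour arrays. Per the file headers, the deposited scanner files hold intensity values of spots and backgrounds, read out by Feature Extraction 9.5.3.1 for slide 1, which the submitters' processing notes name too, and 11.0.1.1 for slide 2. The deposited table holds log10 ratios of Cy5 over Cy3, not turned for the dye swap; it matched log10 of the processed signals within 5e-08. Its array medians ran from -0.0184 to 0.0155. Slide 2 files lack mean signals, so medians were used there.

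From these, R 4.3.3 with limma 3.58.1 and data.table (version 1.17.8) computed normexp-corrected (offset 50), loess-normalized log2 ratios, and levels after Aquantile normalization. Control spots and population outliers were left out, and non-uniform spots kept. A probe had to be well above background for 1 diet or tissue on every array used. Tests were limma (lmFit, eBayes, Benjamini-Hochberg over all probes; threshold 0.05), checked on simulated data. Gene symbols came from the accession for 26918 of 41174 probes, from the symbol for 5082 and from an older symbol for 817, and 8357 had no match. Members, lists and tests were chosen with earlier results of these data known. All members are named; of each list, up to 4 genes per direction by size among those called for diet or level, and some chosen in any case; some genes these rules pick are not reported here. Genes in several lists (Myc, Lin28a, Igf2, Hmga1) count in each. The labels' text on rat hippocampus was read as left over from another study, and each dye swap as the same pools, following the titles.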

Additional observations from a re-analysis of the deposited data

Results flagged for a closer look

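The maternal minus fetal response of Afp to FR passed the threshold at 1.15 (limma adjusted p = 0.0454), with 0.80 in the 1 maternal pair and -0.35 ± 0.22 in the fetal pairs (SD, n = 3). The maternal side has no replicate, so this p rests on the spread of the 3 fetal pairs alone, with the maternal pair assumed to vary like them. The call was lost in 5 of 12 settings, with an adjusted p of up to 0.22, and the maternal ratio was 0.80 to 1.5 over the settings run. The fetal arrays with FR in Cy5 gave 0.83, 0.45 and 0.27, against -1.11, -1.15 and -1.42 with FR in Cy3. Groups of 4 or more pools were not available, so single pools could not be tested as outliers.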

How the results depend on the processing

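The 4 counts of probes called or past 2-fold depended on the processing, and the cause was not tested beyond what each setting removes. Leaving out non-uniform spots, which tests fewer probes, gave 4070 fetal calls in place of 7776, 351 maternal probes past 2-fold in place of 577, 283 calls for the maternal minus fetal response in place of 915, and 4263 level calls in place of 9900. Median centring with no loess gave 4602, 182 and 368 for the first 3 of these, and scaling between arrays 0 fetal calls (11140 with an unadjusted p under 0.05 in limma) and 215 response calls. The deposited ratios gave 1331 maternal probes and 2221 response calls, and a 1.5-fold limit 1802 maternal probes. Slide as a term gave 3315 fetal and 0 response calls (3583 with an unadjusted p under 0.05 in limma), and no normalization between arrays 20278 level calls. Leaving out 1 fetal pair gave 1099 to 6897 fetal calls, 0 to 1249 response calls and 5904 to 15741 level calls. The lowest fetal and response counts came without the pools of 6 (5007 response probes with an unadjusted p under 0.05 in limma), a pair that is also the only fetal pair on slide 1.

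Level differences of 5 list genes turned: with no normalization between arrays Nr6a1 gave -0.038, Ccnd1 -0.065, Cdkn2b -0.032, Twist1 -0.18 and Dis3l2 -0.94, and with FR in place of control pools Ccnd1 gave -0.28. The 4 called member ratios in fetuses kept their sign in all settings run, from 0.57 to 0.81 for Lin28b, 0.25 to 0.41 for Hmga2, 0.14 to 0.32 for Gpc3 and -0.53 to -0.24 for Afp. Median spot signals on both slides were added after the data were seen. FR and control were compared within pool pairs throughout. Probes near background in mothers have only bounds there.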
